A study of Mus musculus with 6 samples.

Results

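The genes described here encode the ADAM, ADAMTS and ADAMTSL proteins. Members were the protein-coding genes of the count table whose symbol is Adam, Adamts or Adamtsl followed by a digit. That rule uses the symbol and gene type alone. There were 57 of them among 54532 genes, 33 in the ADAM, 19 in the ADAMTS and 5 in the ADAMTSL subfamily. Bulk RNA sequencing had been done on cultured aortic cells of male wild-type mice, endothelial by their label. LPS cultures (3 libraries) received 500 ng/mL lipopolysaccharide, the bacterial endotoxin that Toll-like receptor 4 senses, for 8 h. Vehicle cultures (3 libraries) were kept in starvation medium alone for the same 8 h. Each of 3 cell isolations gave 1 LPS and 1 Vehicle culture, and the comparison between them asks how these genes respond to LPS.

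ADAM proteins are mostly membrane-anchored proteases with a disintegrin domain. They cut the outer parts of other membrane proteins from the cell, a step called shedding, which releases growth factors and cytokines and lowers receptors and adhesion molecules at the surface. ADAMTS proteins are secreted, carry thrombospondin type I repeats that hold them in the matrix, and cut proteoglycans, procollagens and other matrix proteins. ADAMTSL proteins share those repeats but have no protease domain, and several bind fibrillin microfibrils. In the vessel wall these families are known for Notch activation, cadherin cleavage and turnover of the proteoglycan versican.

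Total counts per library ranged from 16509197 to 21149988 under LPS and from 17294955 to 25082714 in Vehicle. A count of 0 allows a level of up to 3 counts, or 0.117 to 0.188 CPM (counts per 1000000 of the TMM-scaled library size), which covers counting error only. Of 14 endothelial marker genes, 10 had too few counts to be tested. Cdh5 (VE-cadherin) had 0.0315 ± 0.0545 CPM under LPS and 0.0361 ± 0.0313 CPM in Vehicle (SD, n = 3 each), Pecam1 had 0.280 ± 0.192 CPM under LPS and 0.482 ± 0.374 CPM in Vehicle, and Cldn5 had 0 counts in all 6 libraries. The summed level of that list lay between 61.6 and 67.1 CPM under LPS and between 69.1 and 75.0 CPM in Vehicle, most of it from Flt1. Of the 4 tested genes 1 fell, Erg, with 5.47 ± 0.857 CPM under LPS and 8.29 ± 0.973 CPM in Vehicle. Egfl7 had 4.50 ± 1.22 CPM under LPS and 2.95 ± 1.14 CPM in Vehicle. Most of these endothelial markers, Cdh5, Pecam1 and Cldn5 among them, were thus absent or nearly so, but Flt1, Erg and Egfl7 were detected. The cultures are called aortic cells below. Of 9 tested fibroblast markers 3 rose and 2 fell, and their sum was 3133 to 4223 CPM under LPS and 4690 to 5481 CPM in Vehicle. Most of that sum came from Col1a1, at 2004 ± 348 CPM under LPS and 2920 ± 176 CPM in Vehicle. Lum averaged 3.81 CPM under LPS and 3.40 CPM in Vehicle. Of 6 tested pericyte markers 0 rose and 3 fell, and their sum was 1358 to 1635 CPM under LPS and 1866 to 1981 CPM in Vehicle, most of it from Rgs5, Pdgfrb and Cspg4. Of 6 tested smooth muscle markers 1 rose and 1 fell, with a sum of 468 to 587 CPM under LPS and 423 to 441 CPM in Vehicle. Most of it came from Acta2 and Smtn, while Tagln averaged 1.11 CPM under LPS and 1.00 CPM in Vehicle. Myh11 and Des had too few counts to be tested. The leukocyte markers summed to 6.80 to 9.13 CPM under LPS and 5.67 to 7.08 CPM in Vehicle, with Ptprc, Adgre1, Tyrobp and C1qa at 0 counts, and none of 3 tested was called. Over all tested genes, 24.4% were called lower and 24.9% higher. The part of these marker levels in the results below was not tested. In bulk samples, fewer cells of a type and less RNA per cell cannot be told apart.

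Across all genes, the longer a transcript was, the lower its gene tended to be under LPS, and most members have long transcripts. When tested genes were cut by length into 10 equal bins, the longest bin (6654 to 123179 bases) had a median log2 change of −0.68 and the shortest bin (57 to 1084 bases) one of 0.73. Log2 CPM relative to the Vehicle mean changed per doubling of length by −0.193, −0.318 and −0.364 in the LPS libraries of isolations 1, 2 and 3, while Vehicle libraries, set against the other Vehicle libraries, lay between −0.0394 and 0.0295. The longest transcripts of tested members had a median of 4833.5 bases, against 3197 bases over all tested genes. Each member is therefore given with its plain fold change and with the value from a fit that holds a length offset (a correction, fitted in each library, for the trend of expression with transcript length). Whether the trend is technical or a response of the cells was not tested.

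Of the 57 members, 32 had enough counts to be tested, 15 ADAM, 13 ADAMTS and 4 ADAMTSL genes. Under LPS, 18 of the 32 fell and 1 rose (edgeR quasi-likelihood test, adjusted p below 0.05 over all genes), against 24.4% called lower and 24.9% called higher among all 14508 genes tested. The share called lower differed with length. In the bin that holds the median transcript length of tested members (4326 to 5116 bases), 40.6% of genes were called lower. In the longest bin 72.2% were. The share of mitochondrial counts also moved with the groups, at 1.66%, 1.35% and 1.28% in LPS 1, 2 and 3, against 1.88%, 1.95% and 1.97% in Vehicle 1, 2 and 3, in the same order of LPS libraries as the length slope, and its part in these calls was not tested. Members called lower numbered 9 of 15 in ADAM, 6 of 13 in ADAMTS and 3 of 4 in ADAMTSL, and the 1 called higher was Adam15. Median log2 changes were −0.47 in ADAM, −0.63 in ADAMTS and −0.77 in ADAMTSL, against −0.0031 over all tested genes. At least 2-fold lower were 6 members, where 5.39% of all genes were called and that much lower. Under the length offset, 9 of the 32 were called lower and 4 higher, against 13.8% lower and 21.8% higher among all genes. The medians were then −0.0257 in ADAM, −0.32 in ADAMTS and −0.41 in ADAMTSL, against 0.0404 over all genes. An offset on the deposited gene length gave 11 lower and 4 higher (16.1% and 23.9% of all genes). With isolation as a replicate block, 19 members were called lower and 1 higher (25.5% and 25.5% of all genes), and with block and offset together 10 lower and 4 higher (15.6% and 23.9% of all genes).

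In 20 of the 32 tested members all LPS libraries lay below all Vehicle libraries, and in 2, Adam15 and Adamts14, all LPS libraries lay above them. Over all tested genes 30.8% and 31.1% were separated in these directions. Leaving out libraries changed the counts of members and of all genes. Without isolation 2, edgeR called none of the 32 and 0 of all 14763 genes lower. At an unadjusted edgeR p below 0.05, 14 members were lower there, with no share of all genes counted. In the same 4 libraries, 12 members were called lower with isolation as a replicate block (15.6% of all genes) and 9 by DESeq2 (8.53%). With single libraries left out, members called lower ranged from 12, among others without Vehicle 2 (16.6% of all genes), to 21 without LPS 1 (30.2%). Every tested member without a call had an adjusted p of at least 0.0533, and such a p does not show that its level was the same in both groups.

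**Figure D1:**
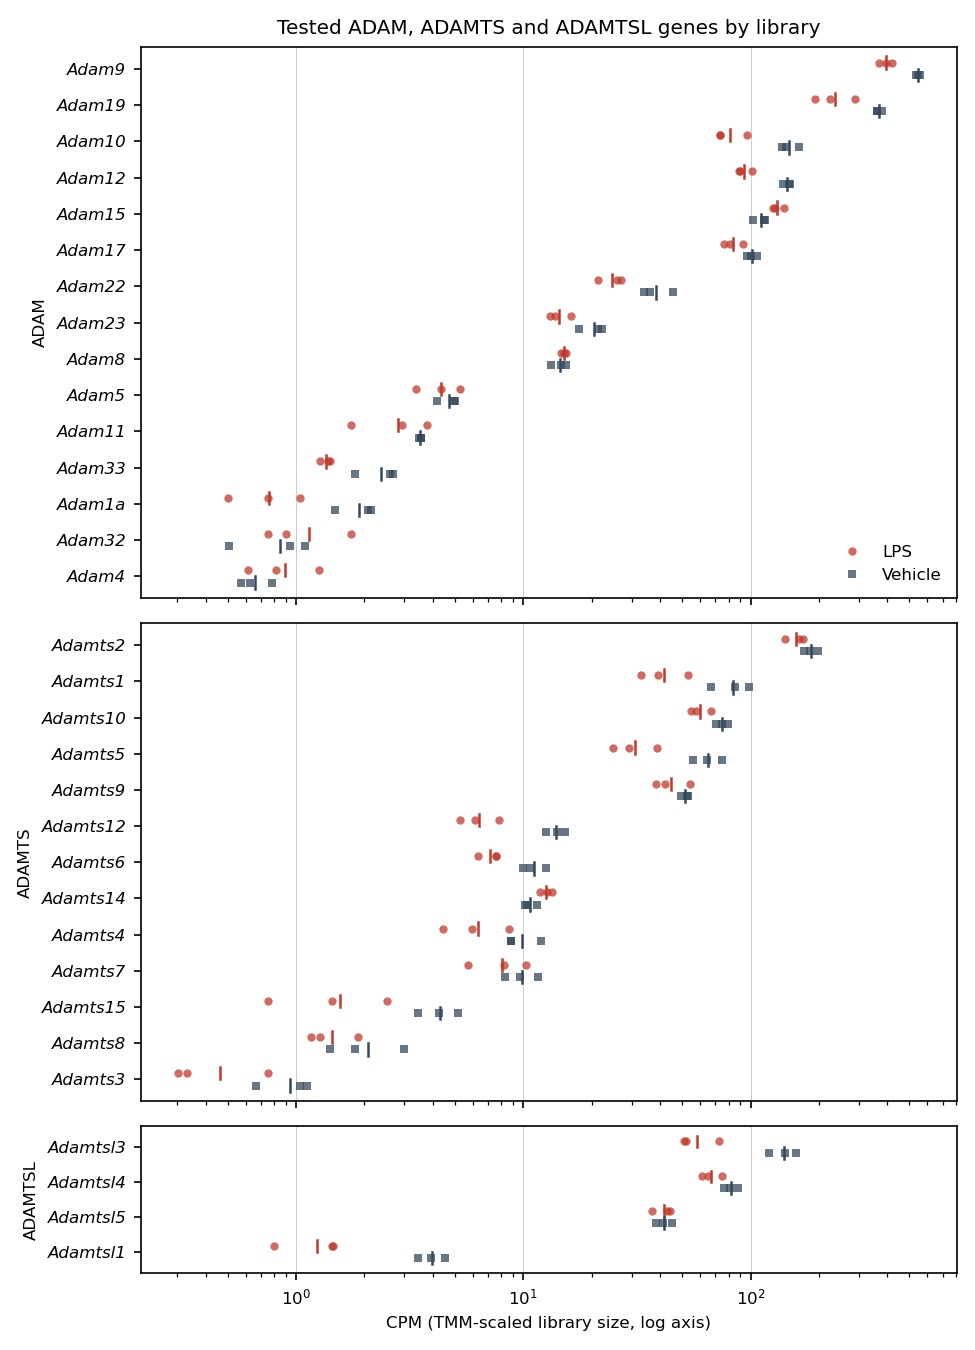
Level of each of the 32 tested members in every library, in CPM on a log axis, in panels by subfamily. Red circles are the 3 LPS libraries and dark squares the 3 Vehicle libraries of a gene, and short vertical lines are group means; Adam10, Adamts1, Adamts5, Adamts12 and Adamtsl3 show LPS points well to the left of the Vehicle points.

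Called in the same direction in both fits were 10 members: Adam9, Adam10, Adam1a, Adamts1, Adamts5, Adamts12, Adamts15, Adamtsl1 and Adamtsl3 were lower and Adam15 was higher. Over all 14508 tested genes, 1697 were called lower in both fits and 2368 higher in both. For 5 of the 10 members the RefSeq promoter table (GRCm38.p6) holds a start site, and Adam1a, which shares most of its exon bases with another gene, was left aside. The 250 bases before each start are shown because these genes were called alike in both fits, most of them in 1 direction. Each is given 5′ to 3′ on the strand of its gene, at chr9:70678732-70678981 (plus strand) for Adam10, chr16:85803114-85803363 (minus) for Adamts1, chr15:11064523-11064772 (plus) for Adamts12, chr7:82335444-82335693 (plus) for Adamtsl3 and chr3:89350029-89350278 (minus) for Adam15, with matches to the motifs below in capitals.
Adam10: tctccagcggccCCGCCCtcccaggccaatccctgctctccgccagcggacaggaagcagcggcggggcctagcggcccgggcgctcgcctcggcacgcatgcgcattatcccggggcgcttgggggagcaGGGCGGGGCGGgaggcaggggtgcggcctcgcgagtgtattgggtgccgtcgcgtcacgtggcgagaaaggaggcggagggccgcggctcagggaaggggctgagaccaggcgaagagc
Adamts1: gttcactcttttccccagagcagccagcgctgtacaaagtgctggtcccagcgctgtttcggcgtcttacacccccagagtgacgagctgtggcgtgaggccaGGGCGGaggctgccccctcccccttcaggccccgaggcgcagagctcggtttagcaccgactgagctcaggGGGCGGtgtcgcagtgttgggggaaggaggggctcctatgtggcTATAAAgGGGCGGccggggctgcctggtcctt
Adamts12: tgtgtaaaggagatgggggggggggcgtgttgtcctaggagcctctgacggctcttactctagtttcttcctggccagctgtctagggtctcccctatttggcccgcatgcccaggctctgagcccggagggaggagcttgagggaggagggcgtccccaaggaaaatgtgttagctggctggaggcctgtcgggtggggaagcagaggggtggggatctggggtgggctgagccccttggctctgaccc
Adamtsl3: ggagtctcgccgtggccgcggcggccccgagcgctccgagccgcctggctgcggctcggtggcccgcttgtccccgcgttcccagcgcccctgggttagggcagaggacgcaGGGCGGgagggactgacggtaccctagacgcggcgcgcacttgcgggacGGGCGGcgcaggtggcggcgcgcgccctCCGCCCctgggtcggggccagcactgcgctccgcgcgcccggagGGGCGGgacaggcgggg
Adam15: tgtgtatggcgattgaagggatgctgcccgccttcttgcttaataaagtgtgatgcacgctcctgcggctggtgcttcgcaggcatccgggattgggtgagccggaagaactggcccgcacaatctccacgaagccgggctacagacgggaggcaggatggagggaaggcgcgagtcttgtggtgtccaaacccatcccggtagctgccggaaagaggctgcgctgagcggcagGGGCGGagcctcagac

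Motifs were searched on both strands, and overlapping matches were all counted. The GC box (GGGCGG), which Sp family factors bind, was found 3 times upstream of Adam10, 3 times upstream of Adamts1, 4 times upstream of Adamtsl3, 1 time upstream of Adam15 and not upstream of Adamts12, and it occurred in 32.7% of all 32851 windows of the same length. The TATA box (TATAAA) was found upstream of Adamts1 and of no other of the 5, against 12.4% of all windows. A match to the AP-1 type motif TGANTCA (6.75% of all windows) or to the kappa B type motif (GGG and TTTCC with any 2 bases between them, 1.41%) was found in none of the 5. These windows held 29, 15, 6, 39 and 18 CpG dinucleotides for Adam10, Adamts1, Adamts12, Adamtsl3 and Adam15, against a median of 6 over all windows. A missing match says only that these letters are not in this window.

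Among the general sheddases of the ADAM subfamily, Adam10 fell most. Adam10, which cuts Notch receptors, cadherins and chemokine precursors at the membrane (ENSMUSG00000054693, GRCm38 chromosome 9, 70678997 to 70780229), had 96.8, 73.2 and 73.3 CPM in the LPS cultures of isolations 1, 2 and 3, against 163, 143 and 138 CPM in the Vehicle cultures. All LPS values lay below the lowest Vehicle value, with a log2 change of −0.87 (SE 0.124, edgeR adjusted p = 0.00144). The offset value was −0.62 (edgeR adjusted p = 0.0016), and genes of its length bin had a median of −0.27 without the offset.

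Adam17, the enzyme that releases tumour necrosis factor and ligands of the EGF receptor (ENSMUSG00000052593, GRCm38 chromosome 12, 21323509 to 21373632), had 92.9, 76.4 and 81.4 CPM under LPS, against 100.5, 96.5 and 107 CPM in Vehicle. Its groups did not overlap either, but the distance between them was small. It fell, with a log2 change of −0.28 (SE 0.0967, edgeR adjusted p = 0.0374), but was not called with the length offset, at −0.0499 (edgeR adjusted p = 0.667). The call also ended without any one of LPS 2, LPS 3, Vehicle 1, Vehicle 2 and Vehicle 3 (edgeR adjusted p up to 0.169). Iah1, on the opposite strand, overlaps 4.35% of the exon bases of Adam17.

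Adam10 and Adam17 have longest transcripts of similar size, 4593 and 4469 bases, and lie in the same length bin. Their deposited gene lengths differ more, at 4913 and 7154 bases. With an offset on that length Adam10 was at −0.77 and Adam17 at 0.0237. The ratio of Adam10 to Adam17 in CPM was 1.04, 0.957 and 0.901 in the LPS libraries of isolations 1, 2 and 3, against 1.62, 1.48 and 1.29 in the Vehicle libraries. The LPS ratios all lay below the Vehicle ratios, by 0.59 on the log2 scale on average. This pair was chosen after the values were seen, so the ratios are a description with no test.

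Adam9, another sheddase (meltrin gamma, ENSMUSG00000031555, GRCm38 chromosome 8, 24949611 to 25016927), was the most abundant member. It had 419.5, 394 and 367 CPM under LPS, against 533, 556 and 546 CPM in Vehicle, and the groups were well apart, with a log2 change of −0.47 (SE 0.0872, edgeR adjusted p = 0.00237). The change was −0.32 (edgeR adjusted p = 0.00543) with the length offset, so the call held. Per kilobase of the deposited gene length, Adam9 averaged 95.6 ± 6.42 CPM per kilobase under LPS and 132 ± 2.79 CPM per kilobase in Vehicle (SD, n = 3 each). It supplied 48.8% of the summed ADAM level per length under LPS and 49.0% in Vehicle, on average over libraries.

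Adam19 and Adam12, the meltrins beta and alpha, known from neuregulin shedding and from muscle and mesenchymal tissue, fell without the length offset. Adam19 had 287, 224 and 192 CPM under LPS, against 359, 379 and 361 CPM in Vehicle, with a log2 change of −0.64 (SE 0.135, edgeR adjusted p = 0.00398). Under LPS the library of isolation 1 was nearest to Vehicle and that of isolation 3 farthest from it. Adam12 had 101, 89.9 and 89.3 CPM under LPS, against 139, 148 and 147 CPM in Vehicle, with a log2 change of −0.63 (SE 0.0859, edgeR adjusted p = 0.00143). Their longest transcripts had 6383 and 7675 bases, in length bins whose median log2 changes were −0.43 and −0.68. After the length offset Adam19 was at −0.16 (edgeR adjusted p = 0.173) and Adam12 at −0.0257 (edgeR adjusted p = 0.824), and neither was called. With an offset on the deposited gene length in place of the transcript length, Adam19 was called lower again, at −0.35 (edgeR adjusted p = 0.0178).

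Adam15, a sheddase also called metargidin that is described in endothelial and other adherent cells (ENSMUSG00000028041, GRCm38 chromosome 3, 89338542 to 89349996), was the member that rose. It had 126, 127 and 139.8 CPM under LPS, against 116, 103 and 114 CPM in Vehicle, and each LPS value exceeded each Vehicle value. The change was small, with a log2 change of 0.24 (SE 0.0878, edgeR adjusted p = 0.0441), and larger with the length offset, at 0.37 (edgeR adjusted p = 0.00828). Without the offset the call ended without any one of LPS 2, LPS 3, Vehicle 1, Vehicle 2 and Vehicle 3 (edgeR adjusted p up to 0.203). An antisense gene, 4731419I09Rik, overlaps 20.6% of the exon bases of Adam15, and without a known strand setting its reads cannot be told apart. With library sizes alone Adam15 was not called.

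Adam8, known from leukocytes and induced in many inflamed tissues, had 14.6, 15.1 and 15.5 CPM under LPS, against 14.7, 13.2 and 15.4 CPM in Vehicle. Its groups overlapped, with a log2 change of 0.0598 (SE 0.119, edgeR adjusted p = 0.705), and the sign turned with library sizes alone, at −0.0148.

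Of the members without protease activity that are known from the nervous system, Adam22 and Adam23 fell without the length offset. Adam22, a neuronal receptor for LGI proteins, had 26.8, 25.9 and 21.3 CPM under LPS, against 45.6, 36.1 and 33.9 CPM in Vehicle, with a log2 change of −0.64 (SE 0.141, edgeR adjusted p = 0.00493). Adam23, its relative, had 16.2, 13.8 and 13.1 CPM under LPS, against 21.4, 22.2 and 17.6 CPM in Vehicle, with a log2 change of −0.50 (SE 0.139, edgeR adjusted p = 0.0136). The LPS values of both genes lay below their Vehicle values. Neither was called with the length offset, at 0.0514 (edgeR adjusted p = 0.761) for Adam22 and −0.0035 (edgeR adjusted p = 0.985) for Adam23, and the plain call of Adam23 ended without any one of LPS 2, Vehicle 1 and Vehicle 2 (edgeR adjusted p up to 0.0662). Adam11, the third of this group, had 2.93, 1.75 and 3.78 CPM under LPS, against 3.54, 3.55 and 3.48 CPM in Vehicle and was not called, at −0.31 (edgeR adjusted p = 0.382).

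The calls of Adam33 and Adam1a rested on few reads. Adam33, linked to airway disease in humans, had 1.27, 1.38 and 1.41 CPM under LPS, against 2.58, 1.82 and 2.66 CPM in Vehicle, with a log2 change of −0.80 (SE 0.278, edgeR adjusted p = 0.0367). That call ended with isolation as a replicate block (edgeR adjusted p = 0.0547), with the length offset (edgeR adjusted p = 0.0661) and without any one of LPS 1, LPS 2, LPS 3, Vehicle 1 and Vehicle 3 (up to 0.127). Adam1a, a sperm fertilin gene, had 1.04, 0.7505 and 0.504 CPM under LPS, against 2.08, 2.14 and 1.49 CPM in Vehicle, with a log2 change of −1.29 (SE 0.366, edgeR adjusted p = 0.0159). It was called lower with the offset too, at −1.02 (edgeR adjusted p = 0.0464), but not without any one of LPS 2, Vehicle 1 and Vehicle 2 (edgeR adjusted p up to 0.0642). Of its exon bases, 63.7% lie in Gm42878 and a smaller part in Mapkapk5, both on the same strand, and 11.3% in Tmem116 on the other strand, so its count may hold reads of those genes.

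Most ADAM genes known from sperm and testis had few or no counts. Adam5, Adam32 and Adam4 were tested and not called, at log2 fold changes of −0.11, 0.39 and 0.44. Adam5 and Adam32 stand in a row with Adam18, Adam3 and Adam9 on chromosome 8, with gaps of 0.806 to 11.8 kb between neighbours. Adam9, at one end of that row, had 393 CPM as the LPS mean, while Adam32, which lies 0.806 kb from it, had 0.755, 1.75 and 0.907 CPM under LPS, against 0.505, 1.09 and 0.939 CPM in Vehicle. Adam3 had 28 counts over all 6 libraries and Adam18 had 9. Of the 18 ADAM genes that could not be tested, Adam24, Adam25, Adam26a, Adam26b, Adam29, Adam30, Adam34, Adam6a, Adam6b and Adam7 had 0 counts in every library. The other 8 had between 1 and 28 counts in all, Adam28 among them with 10 of its 12 counts in LPS 3.

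**Figure D2:**
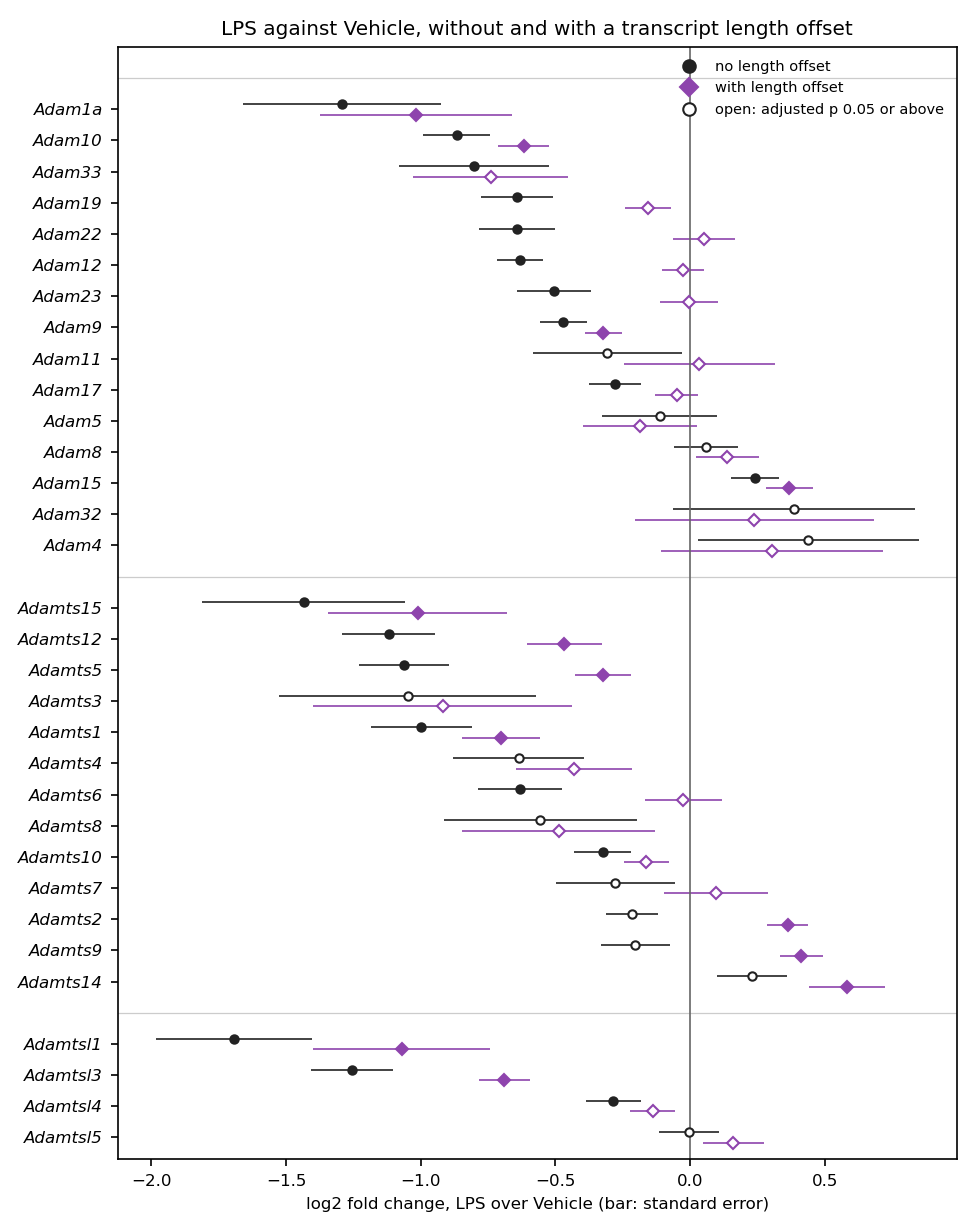
Log2 fold change of LPS over Vehicle for the 32 tested members with its standard error, by subfamily. Black circles are from the fit without a length offset and purple diamonds from the fit with it, filled where the adjusted p was below 0.05; Adam12, Adam22, Adam23 and Adamts6 move close to 0 with the offset, while Adam10, Adamts1, Adamtsl1 and Adamtsl3 stay well below it.

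Among the ADAMTS proteases that cut versican and aggrecan, Adamts1, Adamts5 and Adamts15 fell in both fits. Adamts1 (ENSMUSG00000022893, GRCm38 chromosome 16, 85793827 to 85803113) had 53.2, 39.3 and 32.9 CPM in the LPS cultures of isolations 1, 2 and 3, against 98.5, 85.4 and 66.8 CPM in the Vehicle cultures. Every LPS value was below every Vehicle value, and in both groups isolation 1 was highest and isolation 3 lowest. This was a log2 change of −0.998 (SE 0.187, edgeR adjusted p = 0.00249), or −0.70 (edgeR adjusted p = 0.00492) with the length offset.

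Adamts5, a main aggrecanase of cartilage in mice (ENSMUSG00000022894, GRCm38 chromosome 16, 85856173 to 85901828), lies 53.1 kb from Adamts1, with no other protein-coding gene of the table between them. It had 38.8, 29.3 and 24.8 CPM under LPS, against 74.6, 64.1 and 55.7 CPM in Vehicle, in the same order of isolations as Adamts1. The groups did not overlap, with a log2 change of −1.06 (SE 0.168, edgeR adjusted p = 0.0015). With its longest transcript of 10791 bases, the longest of any tested member, the value with the length offset was smaller, at −0.32 (edgeR adjusted p = 0.0323).

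Adamts15 had 2.50, 1.44 and 0.756 CPM under LPS, against 4.27, 5.16 and 3.44 CPM in Vehicle, with a log2 change of −1.43 (SE 0.377, edgeR adjusted p = 0.0112), and the LPS cultures of isolations 2 and 3 were lowest. The value with the length offset was −1.01 (edgeR adjusted p = 0.0355), and without Vehicle 2 the plain call ended (edgeR adjusted p = 0.051). Reads of Adamts15 were few, with 53, 23 and 15 counts in LPS 1, 2 and 3. Adamts8, 20.1 kb from Adamts15 on chromosome 9, had 1.27, 1.88 and 1.16 CPM under LPS, against 1.40, 1.82 and 2.97 CPM in Vehicle and was not called, at −0.56 (edgeR adjusted p = 0.223).

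Adamts4, the other well known aggrecanase, had 8.64, 5.94 and 4.43 CPM under LPS, against 12.0, 8.86 and 8.84 CPM in Vehicle. Its groups did not overlap, but it was not called, with a log2 change of −0.64 (SE 0.243, edgeR adjusted p = 0.0533). It was called lower with isolation as a replicate block, at −0.68 (edgeR adjusted p = 0.00845), by DESeq2 (adjusted p = 0.031) and by limma-voom (adjusted p = 0.047), and not with the length offset alone, at −0.43 (edgeR adjusted p = 0.143), though it was with the block and the offset together (edgeR adjusted p = 0.0386). Adamts9, which also cuts versican, had 53.9, 41.8 and 38.2 CPM under LPS, against 52.8, 52.2 and 49.3 CPM in Vehicle, with overlapping groups and a log2 change of −0.20 (SE 0.129, edgeR adjusted p = 0.216). The length offset turned it to a call higher, at 0.41 (edgeR adjusted p = 0.00367), and its longest transcript of 8016 bases is in the bin with a median of −0.68. Genes on the opposite strand, A730049H05Rik and Gm15737, overlap 9.18% and 2.82% of its exon bases.

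Adamts5 and Adamts9, versican- and aggrecan-cutting enzymes whose transcripts both lie in the longest bin, were also set against each other. That bin is wide (6654 to 123179 bases), their longest transcripts had 10791 and 8016 bases, and the CPM used here hold no length offset. The ratio of Adamts5 to Adamts9 in CPM was 0.720, 0.700 and 0.650 in the LPS libraries, against 1.41, 1.23 and 1.13 in the Vehicle libraries. The groups were apart by 0.86 on the log2 scale on average, and this pair too was chosen after the values were seen and is a description with no test.

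The procollagen N-propeptidases, which trim fibrillar procollagens so that they can assemble, showed no call in the fit with neither length offset nor replicate block. Adamts2, the most abundant ADAMTS gene, had 169.6, 164 and 142 CPM under LPS, against 197, 182 and 172 CPM in Vehicle, with a log2 change of −0.21 (SE 0.0965, edgeR adjusted p = 0.0912). Its groups did not overlap, and the sign of its change depended on the model: it was called lower with the replicate block, at −0.22 (edgeR adjusted p = 0.0486), and higher with the length offset, at 0.36 (edgeR adjusted p = 0.00501). Adamts14 had 11.8, 13.3 and 12.7 CPM under LPS, against 10.2, 10.4 and 11.5 CPM in Vehicle, all LPS values above the Vehicle values, at 0.23 (edgeR adjusted p = 0.165). It was called higher under the length offset, at 0.58 (edgeR adjusted p = 0.00931). Adamts3 had 0.330, 0.7505 and 0.302 CPM under LPS, against 1.12, 1.04 and 0.665 CPM in Vehicle and was not called in either fit, at −1.05 (edgeR adjusted p = 0.0937).

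Of the ADAMTS members tied to cartilage oligomeric matrix protein and to fibrillin, Adamts12 fell in both fits. Adamts12 (ENSMUSG00000047497, GRCm38 chromosome 15, 11064790 to 11349231) had 7.79, 5.25 and 6.15 CPM under LPS, against 15.3, 14.1 and 12.6 CPM in Vehicle, a clear gap between the groups, with a log2 change of −1.12 (SE 0.173, edgeR adjusted p = 0.00148). The value with the length offset was −0.47 (edgeR adjusted p = 0.0239). Its relative Adamts7, known from vascular smooth muscle, had 10.3, 5.69 and 8.21 CPM under LPS, against 11.6, 9.70 and 8.29 CPM in Vehicle and was not called, at −0.28 (edgeR adjusted p = 0.323).

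Adamts10 and Adamts6, which act on or with fibrillin, were called lower without the length offset. Adamts10 had 67.3, 57.6 and 54.5 CPM under LPS, against 79.8, 75.0 and 70.1 CPM in Vehicle, with a log2 change of −0.33 (SE 0.104, edgeR adjusted p = 0.0266). Adamts6 had 7.55, 7.57 and 6.35 CPM under LPS, against 10.7, 12.6 and 9.97 CPM in Vehicle, with a log2 change of −0.63 (SE 0.156, edgeR adjusted p = 0.00858). In both genes the LPS values lay below the Vehicle values. Neither was called with the length offset, at −0.16 (edgeR adjusted p = 0.151) for Adamts10 and −0.0245 (edgeR adjusted p = 0.913) for Adamts6, and the plain call of Adamts10 ended without any one of LPS 2, LPS 3, Vehicle 1 and Vehicle 2 (edgeR adjusted p up to 0.11).

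The 6 ADAMTS genes that could not be tested were Adamts13, Adamts16, Adamts17, Adamts18, Adamts19 and Adamts20. Adamts13, the protease of von Willebrand factor that liver stellate cells and endothelium make, had 0, 0 and 2 counts in the LPS libraries, against 1, 3 and 2 counts in the Vehicle libraries. Adamts17 had 16 counts over all libraries, the most of these 6, and Adamts18 had 0.

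**Figure D3:**
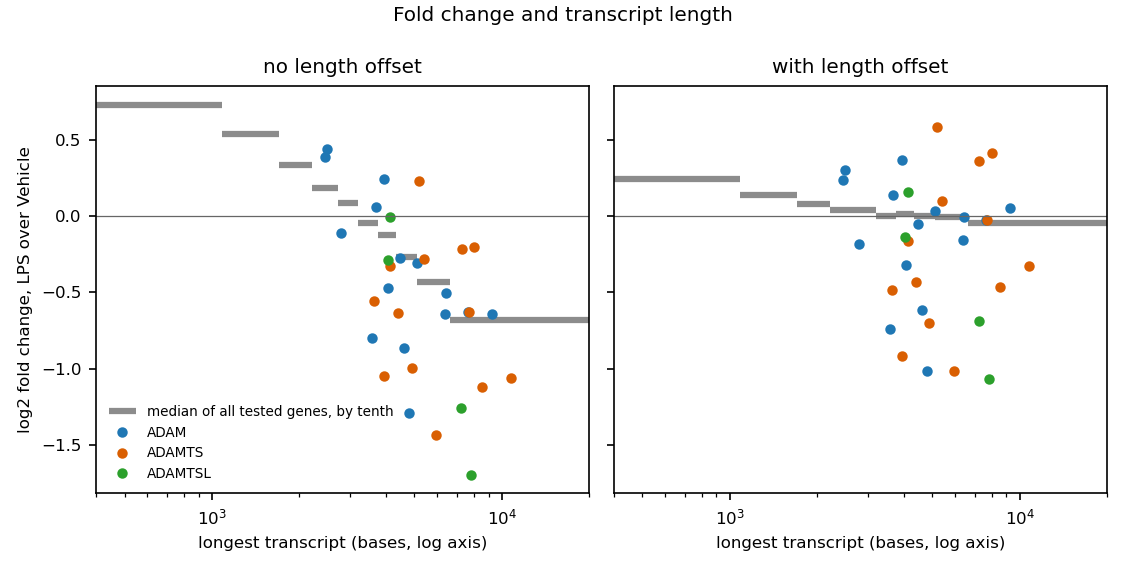
Log2 fold change of LPS over Vehicle against the longest annotated transcript in bases (log axis), without the length offset on the left and with it on the right. Coloured points are the 32 tested members by subfamily and grey bars are medians of all tested genes in 10 bins by length; on the left the bars step down to −0.68 in the longest bin, and points such as Adamtsl1, Adamtsl3 and Adamts12 lie below the bar of their bin.

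Of the ADAMTSL genes, Adamtsl3 and Adamtsl1 fell in both fits. Adamtsl3, a matrix protein related to fibrillin-binding members (ENSMUSG00000070469, GRCm38 chromosome 7, 82335694 to 82614450), had 72.3, 52.0 and 50.7 CPM in the LPS cultures of isolations 1, 2 and 3, against 158, 141 and 120.0 CPM in the Vehicle cultures. The groups were far apart, with a log2 change of −1.26 (SE 0.152, edgeR adjusted p = 0.00118). It was −0.69 (edgeR adjusted p = 0.00135) under the length offset.

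Adamtsl1, also called punctin, had the lowest fold change of the tested members. It had 0.802, 1.44 and 1.46 CPM under LPS, against 3.43, 3.91 and 4.54 CPM in Vehicle, with a log2 change of −1.69 (SE 0.289, edgeR adjusted p = 0.0018), and no LPS value reached the Vehicle values. The offset value was −1.07 (edgeR adjusted p = 0.0271). These values too rested on few reads, with 17, 23 and 29 counts in LPS 1, 2 and 3.

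Adamtsl4, a fibrillin-binding protein whose human gene is mutated in lens dislocation, had 75.0, 65.0 and 61.3 CPM under LPS, against 87.7, 81.5 and 76.4 CPM in Vehicle, close but without overlap, with a log2 change of −0.29 (SE 0.102, edgeR adjusted p = 0.0416). It was not called with the length offset, at −0.14 (edgeR adjusted p = 0.212), nor without any one of LPS 2, LPS 3, Vehicle 1, Vehicle 2 and Vehicle 3 (edgeR adjusted p up to 0.159). With an offset on the deposited gene length in place of the transcript length, Adamtsl4 was called lower, at −0.26 (edgeR adjusted p = 0.0431). Adamtsl5 had 36.7, 44.4 and 43.1 CPM under LPS, against 45.0, 38.2 and 41.2 CPM in Vehicle, with overlapping groups, at −0.0043 (edgeR adjusted p = 0.978). Adamtsl2 had 13 counts in all and was not tested. Adamtsl4 supplied 49.3% of the summed ADAMTSL level per length under LPS and 41.9% in Vehicle.

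Compared per kilobase of gene length, Adam9 led in both groups, ahead of Adam19 at 33.0 ± 6.80 CPM per kilobase under LPS and 51.5 ± 1.55 CPM per kilobase in Vehicle (SD, n = 3 each). In Vehicle the third was Adam10 at 30.1 ± 2.65 CPM per kilobase, and these 3 did not overlap with the next gene in order. Under LPS the third was Adam15 at 21.3 ± 1.24 CPM per kilobase, followed by Adamts2 at 16.98 ± 1.55, Adam10 at 16.5 ± 2.76 and Adamtsl4 at 16.0 ± 1.69 CPM per kilobase, whose library values overlapped. In Vehicle the neighbours from Adamts2 (19.7 ± 1.34 CPM per kilobase) down to Adam12 (13.7 ± 0.484 CPM per kilobase) overlapped one another in turn. Adamtsl3 was the twelfth under LPS, at 7.53 ± 1.56 CPM per kilobase, and the seventh in Vehicle, at 18.0 ± 2.44 CPM per kilobase.

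Within isolations, 22 of the 32 tested members were lower under LPS in all 3 isolations and 2 were higher in all 3, against 36.4% lower and 36.6% higher in all 3 among all tested genes. Each of the 18 members called lower was lower in every isolation. The decrease was smallest in isolation 1 for 15 of those 18 and smallest in isolation 2 for the other 3, and the LPS library of isolation 1 also had the least steep length slope. How many of all genes called lower had that order was not counted, so it is not shown to be particular to the members. No tested member was called for a difference between isolations (edgeR F-test of both isolation coefficients, 0 called at adjusted p below 0.05, where 0.00689% of all tested genes were, and 0.0276% with the length offset), although 6 of the 32 (18.8%) had an unadjusted p below 0.05, against 9.23% of all tested genes. A test that calls so few genes of any kind does not show that members were alike across isolations. Adamts1 had the lowest, at 0.00107 (adjusted p = 0.540), followed by Adamts5 at 0.00434 and Adamtsl3 at 0.00732, each with its highest level in isolation 1 in both groups.

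**Figure D4:**
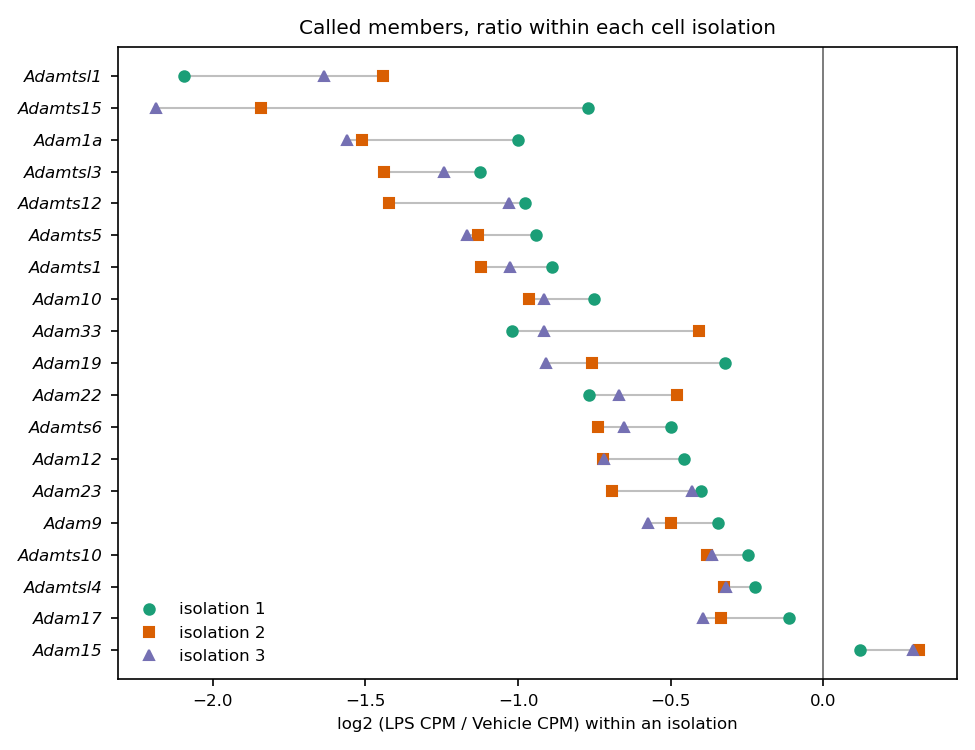
Log2 ratio of LPS CPM to Vehicle CPM within each cell isolation for the 19 called members, ordered by fold change. Circles, squares and triangles are isolations 1, 2 and 3. All ratios of the 18 lower members are below 0, and the circle of isolation 1 is nearest to 0 in 15 of them, an order not counted over all genes.

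Genes that control these proteases moved in both directions. For this list and those below, the shares over all tested genes were 24.4% called lower and 24.9% called higher. With the length offset those shares were 13.8% lower and 21.8% higher. Of 5 tested inhibitor genes, 1 rose and 2 fell. Timp1, a secreted inhibitor of many metalloproteinases that acts weakly on most ADAMTS enzymes, rose, with 4606 ± 1382 CPM under LPS and 1735 ± 135 CPM in Vehicle (SD, n = 3 each), a log2 change of 1.41 (SE 0.197, edgeR adjusted p = 0.00144), and 0.88 (edgeR adjusted p = 0.00153) with the length offset. Timp3, the inhibitor that acts best on ADAM17 and the aggrecanases, fell. It had 1134, 608 and 396 CPM under LPS, against 2525, 2472 and 2135 CPM in Vehicle, with a log2 change of −1.74 (SE 0.309, edgeR adjusted p = 0.00206), and −1.49 (edgeR adjusted p = 0.00233) with the offset. Reck, a membrane-anchored inhibitor that acts on ADAM10, fell too, with 53.1, 40.4 and 32.5 CPM under LPS, against 91.0, 81.6 and 68.6 CPM in Vehicle and a log2 change of −0.94 (SE 0.173, edgeR adjusted p = 0.00235), or −0.70 (edgeR adjusted p = 0.00381) with the offset. Timp2 was not called, at −0.25 (edgeR adjusted p = 0.0621), but was called lower with the replicate block, at −0.25 (edgeR adjusted p = 0.0447).

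Of 12 tested genes for the maturation and transport of ADAM10 and ADAM17, 0 rose and 4 fell, with a median log2 change of −0.13, and 2 rose and 1 fell with the length offset. Furin, the proprotein convertase that activates many of these enzymes, had 162 ± 20.8 CPM under LPS and 219 ± 6.31 CPM in Vehicle (SD, n = 3 each), at −0.44 (edgeR adjusted p = 0.00649), but −0.0166 (edgeR adjusted p = 0.881) with the offset. Pcsk6, another convertase, was at −0.38 (edgeR adjusted p = 0.00654) and Pacs2, a sorting protein, at −0.29 (edgeR adjusted p = 0.0184), and neither was called with the offset. The call of Pacs2 held in 3 of 6 fits that left out 1 library. Rhbdf2 (iRhom2), which carries ADAM17 to the surface, had 10.3, 9.32 and 10.4 CPM under LPS, against 13.8, 12.2 and 12.5 CPM in Vehicle, at −0.35 (edgeR adjusted p = 0.0449). That call ended with the offset (edgeR adjusted p = 0.158) and in 5 of 6 fits that left out 1 library. Rhbdf1 (iRhom1) had 113 ± 1.36 CPM under LPS and 104 ± 7.41 CPM in Vehicle, at 0.12 (edgeR adjusted p = 0.244), but with the offset it was called higher, at 0.46 (edgeR adjusted p = 0.00398). Frmd8, which stabilises that complex, was at −0.0267 (edgeR adjusted p = 0.814). Tspan14, a tetraspanin partner of ADAM10, was at −0.24 (edgeR adjusted p = 0.149), or −0.38 (edgeR adjusted p = 0.0304) with the offset.

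Of 32 tested genes whose proteins ADAM sheddases are known to cut, 13 rose and 9 fell, with a median log2 change of 0.16, and 16 rose and 8 fell with the length offset. The largest changes were in the EGF receptor ligand gene Areg, at 2.43, the protein C receptor gene Procr, at 2.02, the receptor gene Notch3, at −1.36, and the EGF receptor ligand gene Hbegf, at 1.36, all called in both fits. Tnf itself had too few counts to be tested, with 0 counts in 5 libraries.

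Of 25 tested genes for substrates and matrix partners of ADAMTS and ADAMTSL proteins, 3 rose and 14 fell, with a median log2 change of −0.44. With the length offset 4 rose and 7 fell, with a median of −0.0326. Vcan, which encodes versican, the main vascular substrate of Adamts1, had 304, 195 and 187 CPM under LPS, against 628, 555 and 484 CPM in Vehicle. The groups were far apart, with a log2 change of −1.28 (SE 0.184, edgeR adjusted p = 0.00144), or −0.51 (edgeR adjusted p = 0.00482) with the offset. Nid1, a basement membrane protein cut by ADAMTS1, was at −1.04 and Tfpi2, a protease inhibitor, at 1.49, both called in both fits. Fbn1, which encodes fibrillin, was at −0.996 (edgeR adjusted p = 0.00156) and not called with the offset, at −0.23 (edgeR adjusted p = 0.0643).

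Of 7 tested genes for glycosylation and clearance of ADAMTS proteins, 1 rose and 3 fell. With the length offset 2 rose and 2 fell. Lrp1, the endocytic receptor that takes up Adamts5 and several relatives, had 1467 ± 285 CPM under LPS and 3263 ± 421 CPM in Vehicle (SD, n = 3 each), with a log2 change of −1.15 (SE 0.153, edgeR adjusted p = 0.00139), or −0.33 (edgeR adjusted p = 0.0134) with the offset. Cav1, the caveolae gene, was at −0.35 (edgeR adjusted p = 0.0265). B3glct, a glucosyltransferase of thrombospondin repeats, was at −0.34 (edgeR adjusted p = 0.0254), and was not called with the offset. The calls of Cav1 and B3glct each held in 1 of 6 fits that left out 1 library. The syndecan gene Sdc4 rose, at 0.46 (edgeR adjusted p = 0.00868).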

How the data were processed

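Bulk RNA-seq libraries of mouse aortic cell cultures (3 LPS, 3 Vehicle) were compared. The authors deposited a table of whole-number read counts per gene, used as given. Alignment was with HISAT2 to GRCm38, per the submitters' processing notes. How reads were counted, with which strand option and annotation, is not given in the sources used here. Columns named without LPS were taken as Vehicle because the other columns name LPS. Per the batch label, each isolation gave 1 culture of each group, and replicate numbers mark isolations. Deviations of same-numbered libraries from their group means correlated at 0.0958, −0.0450 and 0.206.

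Genes were filtered with filterByExpr, scaled by TMM and tested with edgeR 4.0.16 (R 4.3.3; quasi-likelihood F-test, 2-sided, group alone as the model), with Benjamini-Hochberg adjustment over 14508 genes and calls at an adjusted p below 0.05. The standard error is the absolute log2 fold change divided by the square root of F. The length offset was a natural spline (5 degrees of freedom) of log2 longest annotated transcript, fitted in each library. The code was tested on simulated counts. Alternatives were other scalings and filters, DESeq2 1.42.0, limma-voom 3.58.1, isolation as a replicate block, the length offset, a threshold of 0.01, and leaving out libraries or isolations. The offset on deposited gene length, the fits without an isolation that kept the block or used DESeq2, and the fit without LPS replicates 2 and 3 were added after seeing the data. The members and lists were chosen with earlier results of these data known. Values per library are given for called members, the most abundant uncalled member of each subfamily, and a panel of known members. For companion lists, up to 4 called genes with the largest change and a small panel are named. Other values shown were chosen after they were seen.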

Additional observations from a re-analysis of the deposited data

How the results depend on the processing

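Adam9, Adam10, Adamts1, Adamts5, Adamts12, Adamtsl1 and Adamtsl3 kept their direction and call under all 12 alternative settings on the 6 libraries and without any one library. Of the 19 called members, 11 were called in every fit that left out 1 library. How many of all called genes held in these settings or fits was not counted. The count of ADAM members called higher was 1 in the analysis as reported, where 24.9% of all genes were. It was 0 with library sizes alone (21.5% of all genes), with no filter (12.1%) and with the replicate block in DESeq2 (22.6%). It was also 0 without replicate 2 in DESeq2 (10.5%) and at a threshold of 0.01. When libraries or isolations were left out it ranged from 0 to 1. The count of ADAM members called lower (9, where 24.4% of all genes were) was 3 with the length offset (13.8% of all genes). It was 3 with the replicate block and length offset together (15.6%) and 4 with the offset on deposited gene length (16.1%). At a threshold of 0.01 it was 5, with no share of all genes counted, and without replicate 2 in DESeq2 it was 4 (8.53%). When libraries or isolations were left out it ranged from 0 to 8, with 5 without LPS 2 (16.6%) or without Vehicle 1 (17.4%). The count of ADAMTS members called higher (0, where 24.9% of all genes were) was 3 under each of the 3 length-offset fits. Of all genes, 21.8% were called higher with the offset, 23.9% with block and offset, and 23.9% with the offset on deposited gene length. The count of ADAMTS members called lower (6) ranged from 0 (without isolation 2, where 0 of all genes were called lower) to 10 (without LPS 1, where 30.2% of all genes were). It was 3 without replicate 2 in DESeq2 (8.53% of all genes). The count of ADAMTSL members called lower (3) ranged from 0, also without isolation 2, to 3. The cause of these shifts was not tested.

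With isolation as a replicate block, 8 ADAM, 8 ADAMTS and 3 ADAMTSL members were called lower and 1 ADAM member higher (25.5% lower and 25.5% higher among all genes). The block ended the call of Adam33, added Adamts2 and Adamts4, and changed no other member's call. Of all genes called, 50.57% were higher in the analysis as reported, 61.27% with the length offset and 44.42% with library sizes alone, where the median of all genes was −0.0756.

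Signs turned for these log2 fold changes, most of them of genes without a call. With the length offset, Adam11 was at 0.035, Adam22 at 0.0514, Adamts2 at 0.36, Adamts7 at 0.0964, Adamts9 at 0.41 and Adamtsl5 at 0.16. With the replicate block and the length offset, Adam22 was at 0.0532, Adamts2 at 0.36, Adamts7 at 0.077, Adamts9 at 0.41 and Adamtsl5 at 0.16. With the offset on deposited gene length, Adam17 was at 0.0237, Adam23 at 0.20, Adamts2 at 0.22, Adamts9 at 0.43 and Adamtsl5 at 0.0789. Without LPS replicates 2 and 3, Adam32 was at −0.17, Adam4 at −0.098, Adam5 at 0.17, Adamts7 at 0.0726 and Adamts9 at 0.0715. Leaving out 1 library or isolation gave −0.0338 (without LPS 2) to 0.61 for Adam32, −0.29 to 0.0355 (without LPS 2) for Adam5, and −0.0009 (without Vehicle 2) to 0.11 for Adam8, which was at −0.0006 without isolation 2 and −0.0148 with library sizes alone. Adamtsl5 was at 0.0032 with protein-coding genes alone, 0.0727 without LPS 1, 0.0553 without Vehicle 1 and 0.13 without isolation 1, with or without the block. Without isolation 2 Adamtsl5 kept its sign, at −0.11. By counts, 25 members had too few counts for any test.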
